A study of Homo sapiens with 12 samples.

Results

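The genes described here make and control DNA replication at the G1/S boundary. They were listed by name in 7 roles, which are origin recognition and licensing, MCM helicase proteins, origin firing, polymerases and primase, clamp and strand-joining factors, nucleotide supply, and cyclin E with its partners. The list held 53 genes, of which 50 had a usable entry in the deposited table and 49 were bright enough to be tested, among 10166 tested genes in all. ORC1, ORC5 and GINS3 had no usable entry and were not analysed here, and RFC4 lay under the brightness filter with a mean log2 value of 4.26. The samples came from A673 and TC32, established cell lines of Ewing sarcoma, a childhood bone cancer whose driver is the fused gene EWSR1-FLI1. Each line was grown in DMEM with fetal bovine serum and exposed for 6 hours to DMSO, to 100 nM THZ531 or to 500 nM THZ531, a covalent inhibitor of the elongation kinases CDK12 and CDK13. Each of the 6 groups had 2 arrays, called biological replicates in the labels, and no genotype other than that of the line was given.

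Before S phase, the origin recognition complex, CDC6 and CDT1 load the MCM2 to MCM7 helicase ring onto DNA, a step called licensing that geminin (GMNN) blocks by binding CDT1. Cyclin E with CDK2, which the phosphatase CDC25A activates, and the kinase CDC7 with its partner DBF4 then turn loaded rings into active forks by adding CDC45 and the GINS complex. Polymerases alpha, delta and epsilon copy the strands, PCNA and its RFC loader hold them on DNA, and ribonucleotide reductase and thymidylate synthase supply the nucleotides. Many of these genes are classic targets of E2F transcription factors, which bind short GC-rich words near their start sites.

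Promoters of 6 members are shown because these genes share E2F words near the start yet took different courses under the drug. CDC6, CDC25A and GINS1 ended lower at 500 nM under every scaling in both lines, while MCM7, PCNA and TYMS did not. Each window runs from 250 bases before to 50 bases after the annotated start, 5′ to 3′ on the gene's strand, from RefSeq on GRCh38.p14. Capitals mark an E2F word, found on either strand.
CDC6 promoter, chr17:40287629-40287928, plus strand: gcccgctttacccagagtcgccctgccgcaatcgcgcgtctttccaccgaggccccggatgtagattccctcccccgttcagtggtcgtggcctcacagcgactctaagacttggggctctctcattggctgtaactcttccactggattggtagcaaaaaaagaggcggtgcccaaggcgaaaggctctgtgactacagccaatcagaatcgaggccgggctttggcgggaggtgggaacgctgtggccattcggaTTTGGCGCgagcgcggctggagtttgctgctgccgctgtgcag
CDC25A promoter, chr3:48188368-48188667, minus strand: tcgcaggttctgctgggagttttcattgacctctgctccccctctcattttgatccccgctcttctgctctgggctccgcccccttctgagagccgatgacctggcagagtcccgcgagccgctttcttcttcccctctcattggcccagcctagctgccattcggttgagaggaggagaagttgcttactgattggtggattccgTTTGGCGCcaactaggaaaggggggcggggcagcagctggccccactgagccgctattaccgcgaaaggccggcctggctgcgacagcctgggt
GINS1 promoter, chr20:25407423-25407722, plus strand: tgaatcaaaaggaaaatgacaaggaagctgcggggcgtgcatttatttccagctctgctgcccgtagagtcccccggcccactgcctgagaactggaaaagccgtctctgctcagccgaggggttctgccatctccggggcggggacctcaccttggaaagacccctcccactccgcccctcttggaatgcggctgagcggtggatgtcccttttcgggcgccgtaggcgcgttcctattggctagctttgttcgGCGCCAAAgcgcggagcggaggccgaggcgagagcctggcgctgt
MCM7 promoter, chr7:100101348-100101647, minus strand: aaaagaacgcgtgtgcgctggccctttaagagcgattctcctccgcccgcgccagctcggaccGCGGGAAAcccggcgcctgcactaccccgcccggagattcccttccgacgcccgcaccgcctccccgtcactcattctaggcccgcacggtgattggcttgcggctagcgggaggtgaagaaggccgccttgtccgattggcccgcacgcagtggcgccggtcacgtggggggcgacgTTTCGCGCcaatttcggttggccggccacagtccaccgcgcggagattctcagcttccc
PCNA promoter, chr20:5126573-5126872, minus strand: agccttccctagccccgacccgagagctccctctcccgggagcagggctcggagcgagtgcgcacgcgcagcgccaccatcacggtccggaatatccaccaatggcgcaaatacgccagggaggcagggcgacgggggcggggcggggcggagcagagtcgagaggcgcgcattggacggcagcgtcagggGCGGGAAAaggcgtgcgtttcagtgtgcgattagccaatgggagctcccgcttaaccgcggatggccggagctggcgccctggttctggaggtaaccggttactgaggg
TYMS promoter, chr18:657403-657702, plus strand: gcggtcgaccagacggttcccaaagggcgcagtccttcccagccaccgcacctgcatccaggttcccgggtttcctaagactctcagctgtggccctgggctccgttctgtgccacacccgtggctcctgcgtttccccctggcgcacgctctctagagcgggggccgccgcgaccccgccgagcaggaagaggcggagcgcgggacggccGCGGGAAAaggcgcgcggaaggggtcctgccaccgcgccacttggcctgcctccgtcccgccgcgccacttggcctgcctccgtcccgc
The E2F words searched were TTTGGCGC, TTTCCCGC, TTTGCCGC and TTTCGCGC, on both strands. They were present for 24 of the 45 listed genes that matched a promoter window (53.3%), against 1090 of 27305 genes in the whole table (3.99%). Over windows, the words were in 25 of 62 windows of these genes, against 3.31% of all 35116 windows of the same length. The word CCAAT was found for 26 of 45 (57.8%), against 39.7% of all genes, and 1 E2F word overlapped a CCAAT. Among tested genes, the 23 with an E2F word had a median relative difference at 500 nM of -0.02 in A673 and 0.11 in TC32. The 18 without one had medians of -0.12 in A673 and -0.23 in TC32, and the ranges of these log2 differences overlapped in each line. CCNE2, CDK2, GINS4, MCM4, MCM5, POLD3, RPA2 and RPA3 matched no window.

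The deposited values are log2 array signals. The median over 16944 genes ran from 5.68 to 7.32 across arrays. Relative to DMSO, the array medians at 500 nM were shifted by -0.83 in A673 and -0.79 in TC32, and at 100 nM by -0.62 in A673 and -0.21 in TC32. Such a shift can be less RNA or another scaling of the arrays, and these cannot be told apart here, so differences are given on 2 scales, as deposited and with each array centred on its own median (called relative to the medians). In bulk RNA, fewer cells of a type and less RNA per cell cannot be told apart either. Replicates correlated between 0.9906 and 0.9968 across genes, and replicate 2 of the A673 arrays at 500 nM read lower than replicate 1, with a median difference of -0.52. The Ewing sarcoma marker CD99 stood between 13.15 and 13.89 on all arrays, while the blood marker PTPRC (3.52 to 4.23) and the epithelial marker EPCAM (3.73 to 4.40) stayed under the brightness filter of 5.94. Of the 12 markers of other cell types, 5 had a mean above it: CD79A and HBB of blood, MUC1 of epithelium, and PECAM1 and VWF of endothelium. CD79A and MUC1 read above it on every array, HBB on 10, VWF on 9 and PECAM1 on 7 of the 12, and their part in the results was not tested. NKX2-2, STEAP1, BCL11B, PRKCB and CCND1 were above that filter on every array. FLI1, part of the fusion in these lines, was above it on all A673 arrays and under it on both TC32 arrays at 500 nM.

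At 500 nM THZ531, some replication genes fell deeply in both lines, while others stayed near the shift of all genes. CDC6, POLD3, DBF4, ORC2, CDT1 and MCM10 were among the 10 lowest deposited differences in both lines, and CCNE2 and CDC25A were so in TC32. MCM2, MCM7, PCNA and the nucleotide genes had smaller differences from DMSO than the array medians had, although quantile normalisation turned the relative direction of some of them. As deposited, 49 of 49 members were lower in A673 (adjusted p under 0.05 in limma), where 82.5% of all tested genes were lower, and none was higher, where 0.944% of all genes were. The A673 count was 23 when only the A673 DMSO and 500 nM arrays were fitted, a fit for which the share of all genes is not given. In TC32, 35 were lower, against 62.9% of all genes, and none was higher, against 0.944%. At an unadjusted p under 0.05 in limma, 0 members were higher in either line as well. The median difference of the members was -0.85 in A673 and -0.69 in TC32, beside -0.73 and -0.64 over all tested genes. In each line, both 500 nM arrays lay below both DMSO arrays for 48 of 49 members, as did 82.9% of all genes in A673 and 89.0% in TC32.

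Against the array medians, 17 members were lower and 10 higher in A673, where 27.4% of all genes were lower and 29.8% higher. In TC32, 20 were lower and 19 higher, where the shares of all genes were 30.7% and 41.3%. Their median relative difference was -0.02 in A673 and 0.11 in TC32, beside 0.10 and 0.15 over all genes. The count of members higher in A673 depended on single arrays: it was 6 without A673 DMSO replicate 1, 5 without A673 500 nM replicate 1 and 6 without A673 500 nM replicate 2. Centring on the tested genes alone gave 27 members higher in A673, where 59.5% of all genes were higher, and 29 in TC32, where 61.9% were.

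Because the direction of many members hung on the scaling, calls were also required to hold under 4 scalings, a rule added after the data were seen: as deposited, relative to array medians, relative to the medians of the tested genes, and after quantile normalisation. Under all 4, 14 of 49 members (28.6%) were lower at 500 nM in both lines, against 16.3% of all tested genes. They were ORC2, ORC4, CDC6, CDT1, MCM10, GINS1, CDC7, DBF4, PRIM1, POLD3, POLE2, RFC1, CCNE2 and CDC25A. By role they made up 4 of 7 tested licensing genes, 1 of 8 MCM genes, 3 of 6 firing genes, 3 of 8 polymerase and primase genes, 1 of 10 clamp genes, 0 of 5 nucleotide genes and 2 of 5 cyclin E genes. By line, 14 members met the rule in A673 (19.3% of all genes) and 17 in TC32 (21.7% of all genes), where GMNN, POLA2 and CCNE1 joined. No member was higher under all 4 scalings in either line, where 0.934% of all genes were so in A673 and 0.944% in TC32. In A673 27 members, and in TC32 15, were called lower under at least 1 scaling and higher under another. The share of all genes that turned in this way was not counted, so these counts do not set the members apart from other genes. The TC32 call of CDC7 rested on values under the brightness filter. Leaving out 1 array at a time gave 13 or 14 members lower in both lines: CDT1 dropped out without A673 500 nM replicate 1, and ORC4 without TC32 DMSO replicate 1, TC32 DMSO replicate 2 or TC32 500 nM replicate 1.

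**Figure D1:**
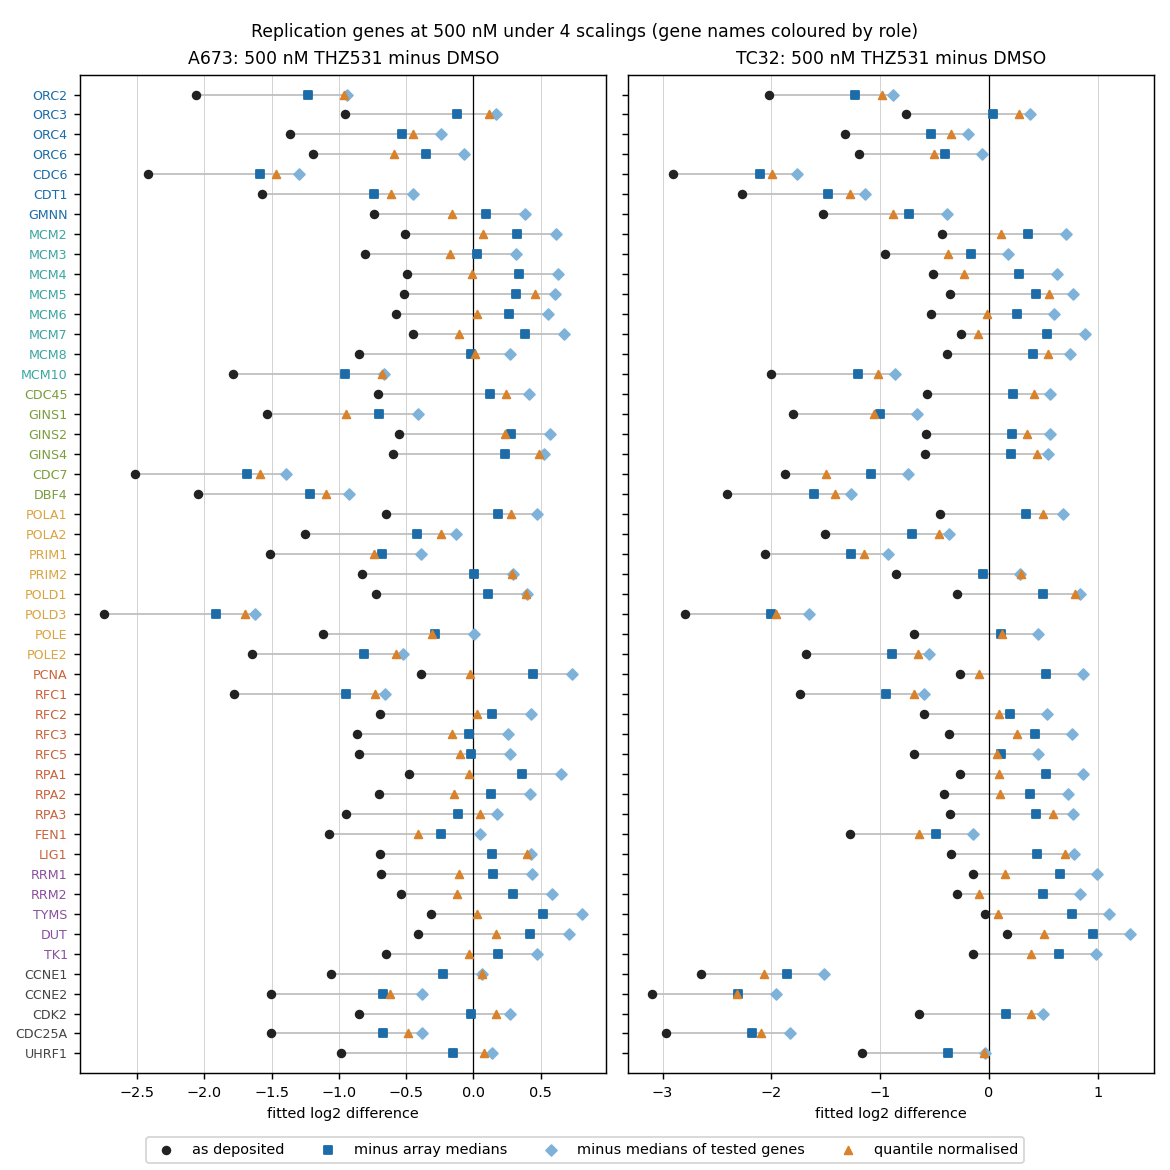
Fitted log2 difference of 500 nM THZ531 minus DMSO for each of the 49 tested replication genes in A673 (left) and TC32 (right), with a marker for each of the 4 scalings and the gene names coloured by role. CDC6, POLD3, DBF4 and ORC2 stay left of 0 under every scaling, while the markers of most MCM and nucleotide genes lie on both sides of it.

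Licensing genes included some of the deepest falls, and CDC6, the loader of the helicase ring, was the lowest of this role in both lines. In A673, CDC6 stood at 10.65 and 10.45 under DMSO, 9.09 and 9.01 at 100 nM, then 8.34 and 7.93 at 500 nM. In TC32, CDC6 stood at 10.10 and 9.91 under DMSO, 8.76 and 9.01 at 100 nM, then 7.12 and 7.08 at 500 nM. The signal stepped down at each dose in both lines, with no overlap between groups of a line. The fall at 500 nM was 5.34-fold in A673 (log2 difference -2.42 ± 0.21, SE) and 7.47-fold in TC32 (-2.90 ± 0.21) as deposited. Once arrays were centred, it was -1.58 ± 0.12 in A673 (adjusted p = 3.28e-10) and -2.11 ± 0.12 in TC32 (adjusted p = 2.3e-12).

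ORC2, a subunit of the origin recognition complex, followed the same order. In A673, ORC2 had 9.07 and 9.202 under DMSO, 7.88 and 7.82 at 100 nM, then 7.33 and 6.82 at 500 nM. In TC32, ORC2 had 8.47 and 8.41 under DMSO, 7.58 and 7.75 at 100 nM, then 6.33 and 6.52 at 500 nM. All dose groups were separate in each line. At 500 nM the relative difference was -1.23 ± 0.13 in both lines (adjusted p = 7.46e-08 in A673 and 4.96e-08 in TC32). ORC4, another subunit, fell at 500 nM by 0.53 relative to the medians in each line, but at 100 nM its relative difference was 0.24 in A673, not called, and 0.57 in TC32, called higher. ORC3 went the other way, with relative differences of -0.59 in A673 and -0.79 in TC32 at 100 nM, both called, and -0.12 and 0.03 at 500 nM, neither called.

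CDT1, which brings the helicase ring to origins, was lower at 500 nM in both lines, by more in TC32. In A673, CDT1 was at 10.44 and 10.15 under DMSO, 9.58 and 9.62 at 100 nM, then 8.87 and 8.58 at 500 nM. In TC32, CDT1 was at 9.34 and 9.003 under DMSO, 8.51 and 8.27 at 100 nM, then 6.80 and 7.01 at 500 nM. The dose groups did not overlap in either line, and the relative difference at 500 nM was -0.74 ± 0.13 in A673 and -1.48 ± 0.13 in TC32. GMNN, the inhibitor of CDT1, gave 11.55 and 11.60 under DMSO, 11.50 and 11.48 at 100 nM, then 11.09 and 10.58 at 500 nM in A673. Its TC32 values were 10.93 and 10.75 under DMSO, 10.91 and 11.10 at 100 nM, then 9.19 and 9.44 at 500 nM. Only the 500 nM arrays stood well apart, and there the relative difference was 0.09 ± 0.13 in A673, not called, and -0.73 ± 0.13 in TC32 (adjusted p = 2.75e-05). At 100 nM, GMNN was higher relative to the medians in both lines, by 0.53 in A673 and 0.37 in TC32, while its deposited values were not called there.

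**Figure D2:**
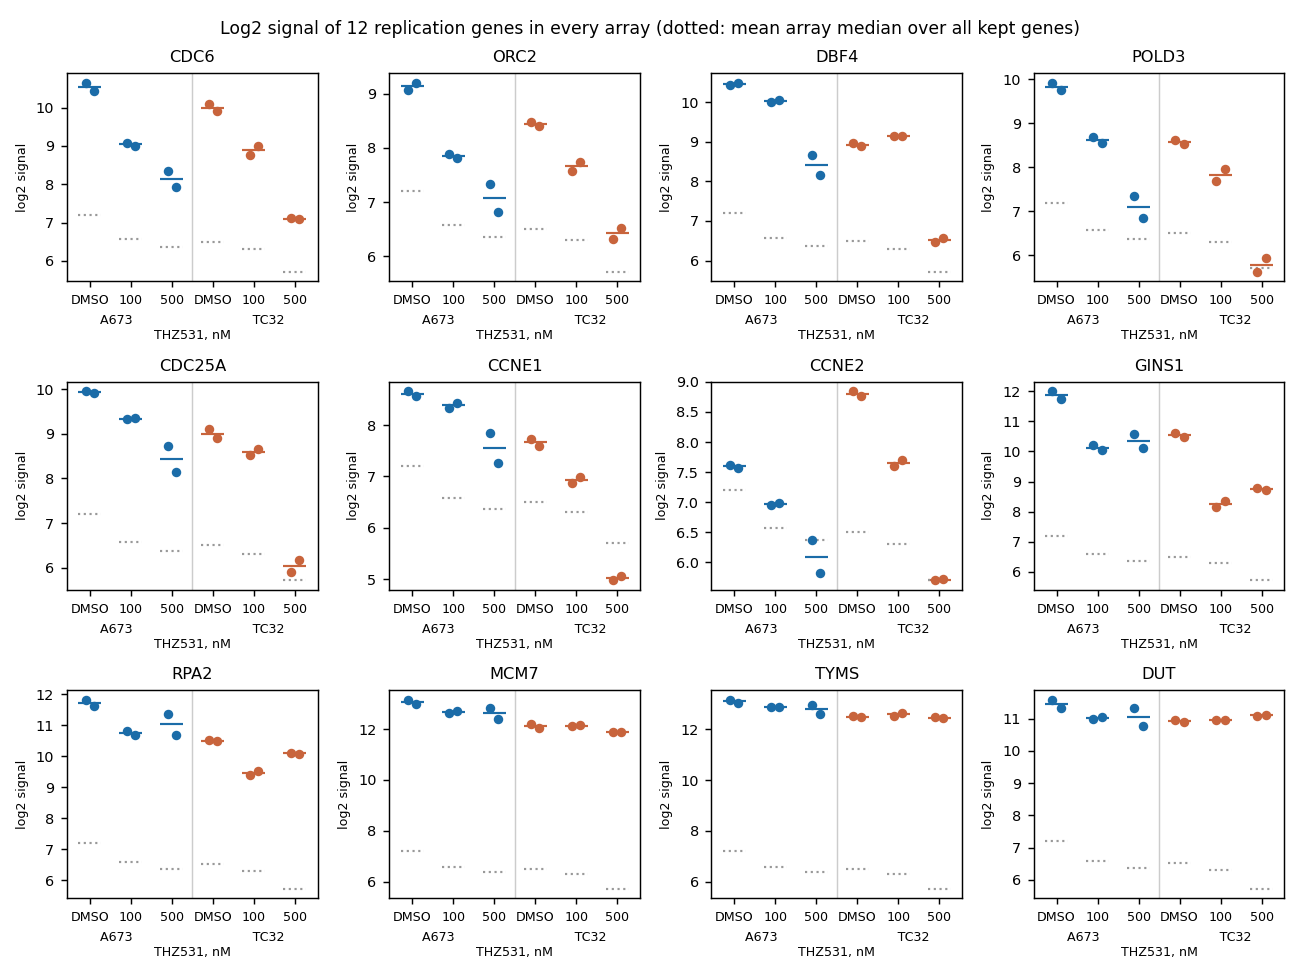
Deposited log2 signal of 12 replication genes on each of the 12 arrays, by line and THZ531 dose, with a bar at each group mean and a dotted line at the mean of the group's array medians over all kept genes. CDC6, ORC2 and POLD3 step down with dose, DBF4 drops mainly at 500 nM, GINS1 and RPA2 are lowest at 100 nM in TC32, and the TC32 arrays of TYMS and DUT lie close together at all doses.

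The MCM genes other than MCM10 stayed near the shift of the array medians, with relative differences at 500 nM from -0.02 to 0.39 in A673 and from -0.16 to 0.54 in TC32. MCM2 in A673 had 11.52 and 11.60 under DMSO, 11.28 and 11.36 at 100 nM, then 11.30 and 10.81 at 500 nM. MCM2 in TC32 had 10.42 and 10.22 under DMSO, 10.33 and 10.39 at 100 nM, then 9.89 and 9.89 at 500 nM. Both 500 nM arrays were below both DMSO arrays in each line. The deposited difference was -0.51 in A673 and -0.43 in TC32, while relative to the medians it was 0.33 in A673 (adjusted p = 0.0186) and 0.36 in TC32 (adjusted p = 0.00726). These calls depended on single arrays: the relative adjusted p in A673 was 0.263 without A673 DMSO replicate 1, 0.0885 without A673 500 nM replicate 1 and 0.0653 without A673 500 nM replicate 2, and in TC32 it was 0.0867 without TC32 DMSO replicate 2. The deposited MCM2 call in TC32 was lost on leaving out any array other than the A673 500 nM pair, with adjusted p up to 0.276, and that in A673 without A673 DMSO replicate 2 (0.068). MCM7 in A673 had 13.15 and 12.99 under DMSO, 12.65 and 12.72 at 100 nM, then 12.84 and 12.41 at 500 nM. MCM7 in TC32 had 12.20 and 12.05 under DMSO, 12.11 and 12.16 at 100 nM, then 11.87 and 11.87 at 500 nM. The values of MCM7 at 500 nM were below those with DMSO in both lines, yet its relative difference was 0.39 ± 0.08 in A673 and 0.54 ± 0.08 in TC32, and after quantile normalisation it was -0.11 in A673 and -0.10 in TC32.

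Of the 8 MCM genes, 8 were lower as deposited in A673 (82.5% of all genes) and 5 in TC32 (62.9% of all genes), where MCM5, MCM7 and MCM8 were not called. The deposited A673 call of MCM7 was lost without A673 DMSO replicate 1. MCM7 and MCM8 were called lower in TC32 when either A673 500 nM array was left out. The 8 deposited differences had medians of -0.54 in A673 and -0.47 in TC32. MCM10, which joins the fork after licensing and is no part of the ring, was the exception, with relative differences of -0.96 ± 0.11 in A673 (adjusted p = 2.35e-07) and -1.21 ± 0.11 in TC32 (adjusted p = 4.23e-09). MCM8, which acts in a separate helicase, showed 10.40 and 10.55 under DMSO, 10.00 and 9.64 at 100 nM, then 9.87 and 9.38 at 500 nM in A673. MCM8 in TC32 showed 8.80 and 8.90 under DMSO, 8.64 and 8.62 at 100 nM, then 8.48 and 8.44 at 500 nM. All A673 arrays were above all TC32 arrays.

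In origin firing, the kinase CDC7 and its activator DBF4 both ended low at 500 nM but took different paths. CDC7 in A673 gave 8.24 and 8.28 under DMSO, 6.64 and 6.47 at 100 nM, then 5.82 and 5.68 at 500 nM. CDC7 in TC32 gave 6.52 and 6.54 under DMSO, 5.23 and 5.14 at 100 nM, then 4.60 and 4.70 at 500 nM. The dose groups were apart in each line, and the means at 500 nM in A673 and at both doses in TC32 lay under the brightness filter. Counted from that level, CDC7 was at least 4.99-fold lower at 500 nM in A673 and at least 1.5-fold lower in TC32. Relative to the medians, CDC7 was already lower at 100 nM in A673, with a difference of -1.09 ± 0.15. In TC32, with array values under the filter raised to its level, an alternative added after the data were seen, the relative difference was -0.38 ± 0.14 at 100 nM (adjusted p = 0.0319) and 0.21 ± 0.14 at 500 nM (adjusted p = 0.183).

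DBF4 was named for its dose pattern, after its values were seen. DBF4 in A673 had 10.43 and 10.50 under DMSO, 10.01 and 10.05 at 100 nM, then 8.67 and 8.17 at 500 nM. DBF4 in TC32 had 8.97 and 8.88 under DMSO, 9.14 and 9.14 at 100 nM, then 6.47 and 6.57 at 500 nM. The drop came between the doses, and in TC32 both 100 nM arrays were above both DMSO arrays. At 100 nM the relative difference from DMSO was 0.18 ± 0.12 in A673, not called, and 0.42 ± 0.12 in TC32 (adjusted p = 0.00688). From 100 nM, the relative difference at 500 nM was -1.39 ± 0.12 in A673 (adjusted p = 5.82e-09) and -2.03 ± 0.12 in TC32 (adjusted p = 7.05e-12), the lowest of all 49 members in each line.

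GINS1, a GINS subunit also named after its values were seen, showed the opposite order of doses. GINS1 in A673 had 12.003 and 11.76 under DMSO, 10.20 and 10.05 at 100 nM, then 10.59 and 10.10 at 500 nM. GINS1 in TC32 had 10.60 and 10.48 under DMSO, 8.15 and 8.35 at 100 nM, then 8.78 and 8.71 at 500 nM. In TC32 the 100 nM arrays were below the 500 nM arrays, while in A673 those groups overlapped. At 100 nM the deposited difference from DMSO was -1.75 ± 0.20 in A673 and -2.30 ± 0.20 in TC32, and the relative one was -1.13 ± 0.11 and -2.09 ± 0.11. In both lines it was the lowest of the 49 members at 100 nM on either scale. GINS2, in the same complex, had 10.63 and 10.63 under DMSO, 10.34 and 10.38 at 100 nM, then 10.33 and 9.82 at 500 nM in A673. GINS2 in TC32 had 9.10 and 8.85 under DMSO, 9.09 and 9.19 at 100 nM, then 8.35 and 8.45 at 500 nM. It was lower at 500 nM as deposited in both lines, by 0.56 in A673 and 0.58 in TC32, with relative differences of 0.28 and 0.22 that were not called. Those deposited calls were lost without A673 DMSO replicate 1 (adjusted p = 0.063 in A673) and without TC32 DMSO replicate 1 or TC32 500 nM replicate 1 (0.151 and 0.086 in TC32).

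Among polymerase genes, POLD3, an accessory subunit of polymerase delta, had the lowest difference at 500 nM in both lines. POLD3 in A673 had 9.93 and 9.75 under DMSO, 8.70 and 8.55 at 100 nM, then 7.35 and 6.84 at 500 nM. POLD3 in TC32 had 8.61 and 8.52 under DMSO, 7.68 and 7.96 at 100 nM, then 5.62 and 5.93 at 500 nM. Each dose group lay below the one before it in both lines. The fall at 500 nM was 6.70-fold in A673 and, counted from the filter level, at least 6.17-fold in TC32. The relative difference was -1.91 ± 0.13 in A673 (adjusted p = 7.48e-11) and -2.0 ± 0.13 in TC32 (adjusted p = 2.36e-11). POLD1, the catalytic subunit of the same enzyme, had relative differences of 0.11 in A673, not called, and 0.50 in TC32, called higher, while its deposited differences were -0.73, called lower, and -0.29, not called.

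The primase gene PRIM1 and the polymerase genes POLA2 and POLE2 were lower relative to the medians at both doses in both lines. For PRIM1 the relative difference was -0.90 ± 0.11 in A673 and -1.68 ± 0.11 in TC32 at 100 nM, and -0.68 ± 0.11 and -1.27 ± 0.11 at 500 nM. POLA2, the second subunit of polymerase alpha, had -0.77 in A673 and -1.02 in TC32 at 100 nM, and -0.42 and -0.71 at 500 nM. POLE2 had -0.53 in A673 and -0.49 in TC32 at 100 nM, and -0.82 and -0.89 at 500 nM. The partner genes stood closer to 0, with relative differences at 500 nM of 0.18 and 0.34 for POLA1, 0.00 and -0.06 for PRIM2 and -0.28 and 0.11 for POLE in A673 and TC32, of which POLA1 in TC32 and POLE in A673 were called. As deposited, POLA1 was at -0.65 in A673 and -0.45 in TC32, both called lower.

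Clamp and strand-joining genes were mixed. PCNA, the sliding clamp, had 12.90 and 12.76 under DMSO, 12.71 and 12.72 at 100 nM, then 12.65 and 12.23 at 500 nM in A673. PCNA in TC32 had 12.20 and 12.13 under DMSO, 12.30 and 12.39 at 100 nM, then 11.84 and 11.95 at 500 nM. The 500 nM arrays were lowest in each line, although the deposited difference was only -0.39 in A673, called lower, and -0.27 in TC32, not called. The A673 call was lost without A673 DMSO replicate 1 (adjusted p = 0.142) or A673 500 nM replicate 2 (0.101), and TC32 was called without either A673 500 nM array. Against the array medians, PCNA was higher by 0.44 in A673 and 0.52 in TC32, and after quantile normalisation the values were -0.03 and -0.09. RFC1, the large subunit of the clamp loader, was the clamp gene that fell in both lines under every scaling, with relative differences of -0.95 ± 0.12 in A673 and -0.94 ± 0.12 in TC32 at 500 nM. At 100 nM the relative values of RFC1 were -0.01 and 0.07, neither called. FEN1, the flap nuclease, had relative differences at 500 nM of -0.24 in A673, not called, and -0.49 in TC32, called.

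RPA2, a subunit of the single-strand binding protein, was picked after its values were seen. RPA2 in A673 gave 11.82 and 11.63 under DMSO, 10.82 and 10.68 at 100 nM, then 11.35 and 10.69 at 500 nM. RPA2 in TC32 gave 10.51 and 10.50 under DMSO, 9.39 and 9.53 at 100 nM, then 10.10 and 10.08 at 500 nM. The 100 nM arrays were lowest in TC32, and in A673 the arrays of the 2 doses overlapped. Once arrays were centred, RPA2 was lower at 100 nM by -0.35 ± 0.11 in A673 and -0.84 ± 0.11 in TC32, and at 500 nM it was at 0.13 and 0.38, of which the TC32 value was called higher. As deposited, RPA2 at 500 nM was at -0.70 in A673 and -0.41 in TC32, both called lower. After quantile normalisation it was at -0.14 and 0.10, neither called. RFC3, another loader subunit, was the only member higher at 100 nM in TC32 as deposited (0.48 ± 0.19, adjusted p = 0.0481), where 5.55% of all genes were higher. That call was lost on leaving out any of 10 of the 12 arrays, with adjusted p up to 0.364, and with no filter or no trend, while the relative one (0.69) held without each of the 12.

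The 5 nucleotide genes had a median deposited difference at 500 nM of -0.54 in A673, as the MCM genes had, and of -0.14 in TC32. RRM2, the regulated subunit of ribonucleotide reductase, had 12.32 and 12.15 under DMSO, 11.73 and 11.80 at 100 nM, then 11.91 and 11.48 at 500 nM in A673. RRM2 in TC32 had 11.93 and 11.90 under DMSO, 11.20 and 11.28 at 100 nM, then 11.60 and 11.64 at 500 nM. In TC32 the 100 nM arrays were lowest, with a deposited difference from DMSO of -0.68 ± 0.17 (adjusted p = 0.00039). TYMS, thymidylate synthase, had 13.16 and 13.02 under DMSO, 12.87 and 12.86 at 100 nM, then 12.96 and 12.59 at 500 nM in A673. TYMS in TC32 had 12.50 and 12.48 under DMSO, 12.53 and 12.63 at 100 nM, then 12.47 and 12.45 at 500 nM. The deposited difference of TYMS at 500 nM was -0.31 in A673, called lower, and -0.03 in TC32, not called. Its relative difference was 0.52 ± 0.08 in A673 and 0.76 ± 0.08 in TC32. After quantile normalisation it was 0.03 in A673 and 0.08 in TC32, neither called.

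DUT, the enzyme that removes dUTP, had 11.59 and 11.33 under DMSO, 10.99 and 11.04 at 100 nM, then 11.33 and 10.77 at 500 nM in A673. DUT in TC32 had 10.98 and 10.90 under DMSO, 10.96 and 10.97 at 100 nM, then 11.08 and 11.13 at 500 nM. It was the only member whose 500 nM arrays were above both DMSO arrays in TC32, where 2.10% of all genes were so, and the only one whose 500 nM and DMSO arrays overlapped in A673. The relative difference was 0.42 ± 0.10 in A673 and 0.96 ± 0.10 in TC32 (adjusted p = 1.55e-08), and the deposited one in TC32 was 0.17 ± 0.18 (adjusted p = 0.407). RRM1, the large reductase subunit, had 11.67 and 11.47 under DMSO, 11.03 and 11.05 at 100 nM, then 11.12 and 10.64 at 500 nM in A673. RRM1 in TC32 had 11.29 and 11.18 under DMSO, 10.93 and 11.02 at 100 nM, then 11.06 and 11.13 at 500 nM. TK1, thymidine kinase, showed the same picture of little change in TC32, where the arrays read 10.28 and 10.19 under DMSO, 10.09 and 10.06 at 100 nM, then 10.06 and 10.11 at 500 nM. TK1 in A673 had 11.48 and 11.32 under DMSO, 10.78 and 10.77 at 100 nM, then 11.05 and 10.44 at 500 nM. As deposited, all 5 genes of this role were lower at 500 nM in A673 (82.5% of all genes) and 0 of 5 in TC32 (62.9%). The TC32 count hung on arrays outside that comparison: RRM2, with a deposited difference of -0.29, was called lower in TC32 when either A673 500 nM array was left out. Relative to the medians, 5 of 5 were called higher in TC32 (41.3% of all genes) and 3 of 5 in A673 (29.8%), of which RRM2 was lost without A673 500 nM replicate 2 (adjusted p = 0.0603), and after quantile normalisation RRM2 was at -0.09 in TC32 and -0.12 in A673. The deposited A673 call of DUT was lost without A673 500 nM replicate 2 (adjusted p = 0.298) or A673 DMSO replicate 1 (0.282). That of TYMS was lost on leaving out any array other than A673 500 nM replicate 1, with adjusted p up to 0.24, and that of RRM2 without A673 DMSO replicate 1 (0.0639).

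CDC25A fell further at 500 nM in TC32 than in A673, and so did CCNE1 and CCNE2 on their fitted values. CCNE1, cyclin E1, had 8.66 and 8.56 under DMSO, 8.34 and 8.43 at 100 nM, then 7.84 and 7.27 at 500 nM in A673. CCNE1 in TC32 had 7.74 and 7.60 under DMSO, 6.86 and 6.99 at 100 nM, then 4.97 and 5.07 at 500 nM. The groups were apart in both lines, and the TC32 arrays at 500 nM lay under the brightness filter. The deposited difference at 500 nM was -2.65 ± 0.21 in TC32, a fall of at least 3.30-fold counted from that filter, and -1.06 ± 0.21 in A673. CCNE2, cyclin E2, had 7.62 and 7.58 under DMSO, 6.96 and 6.98 at 100 nM, then 6.36 and 5.83 at 500 nM in A673. CCNE2 in TC32 had 8.85 and 8.77 under DMSO, 7.61 and 7.70 at 100 nM, then 5.70 and 5.72 at 500 nM. With DMSO and at 100 nM the TC32 arrays were above the A673 arrays, and at 500 nM they were below them. The deposited difference at 500 nM was -3.10 ± 0.21 in TC32, at least 7.28-fold, and -1.50 ± 0.21 in A673.

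CDC25A, the phosphatase that activates CDK2, had 9.96 and 9.93 under DMSO, 9.34 and 9.35 at 100 nM, then 8.72 and 8.15 at 500 nM in A673. CDC25A in TC32 had 9.11 and 8.90 under DMSO, 8.54 and 8.65 at 100 nM, then 5.90 and 6.18 at 500 nM. The step at 500 nM was the larger in both lines, with a 7.82-fold fall from DMSO in TC32 and 2.84-fold in A673. CDK2 itself had deposited differences of -0.64 in TC32 and -0.85 in A673, both called lower, and relative ones of 0.15 and -0.02, neither called. UHRF1, which reads hemimethylated DNA behind the fork, had relative differences of -0.37 in TC32, called lower, and -0.15 in A673, not called.

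Setting the 500 nM effect in TC32 against that in A673 tested this difference between lines directly. A lower effect in TC32 means a more negative log2 difference from DMSO there than in A673. As deposited, 3 members had a lower effect in TC32 (1.28% of all genes were so) and none a higher one (0.551%), with 5 lower and 4 higher at an unadjusted p under 0.05. They were CCNE1 (difference of effects -1.59 ± 0.29, adjusted p = 2.83e-05), CCNE2 (-1.59 ± 0.30, adjusted p = 3.05e-05) and CDC25A (-1.46 ± 0.30, adjusted p = 0.00019), and the same 3 were called under all 4 scalings (1.24% of all genes). Against the array medians, 6 members had a lower effect in TC32 (6.78% of all genes) and 3 a higher one (3.07%), adding GMNN, CDT1 and PRIM1 on the lower side and DUT, RRM1 and TK1 on the higher. The deposited counts rested on the offset A673 arrays. Shares of all genes are not given for the unadjusted p or for fits without an array, so those counts show only that member calls moved. Without A673 500 nM replicate 1, 5 members were lower and 23 higher, and without A673 500 nM replicate 2, 12 were lower and 0 higher. The TC32 values of CCNE1 and CCNE2 at 500 nM lay under the brightness filter, so their fitted differences are not bounds. CCNE2 on A673 500 nM replicate 2 lay under it too. Under DMSO, CCNE2 was lower in A673 by -1.21 as deposited, so it had less room there to fall to the filter. How far this set the raised difference of CCNE2 was not tested. With array values under the filter raised to it, the deposited difference of effects was -0.67 ± 0.27 for CCNE1, no longer called (adjusted p = 0.186), and -1.42 ± 0.26 for CCNE2 (adjusted p = 9.09e-05), and relative to the medians it was -0.71 ± 0.16 for CCNE1 (adjusted p = 0.00584) and -1.46 ± 0.16 for CCNE2 (adjusted p = 3.87e-06). The 3 relative calls on the higher side became 0 without TC32 DMSO replicate 1, TC32 DMSO replicate 2 or TC32 500 nM replicate 2. All 3 were also lost without A673 500 nM replicate 2, where CDC7 was called higher instead, RRM1 and TK1 were lost without A673 500 nM replicate 1, and 6 members were higher without A673 DMSO replicate 1. The relative call of CDT1 was lost without A673 500 nM replicate 2 (adjusted p = 0.0626), TC32 500 nM replicate 1 (0.0612) or TC32 DMSO replicate 1 (0.0926).

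**Figure D3:**
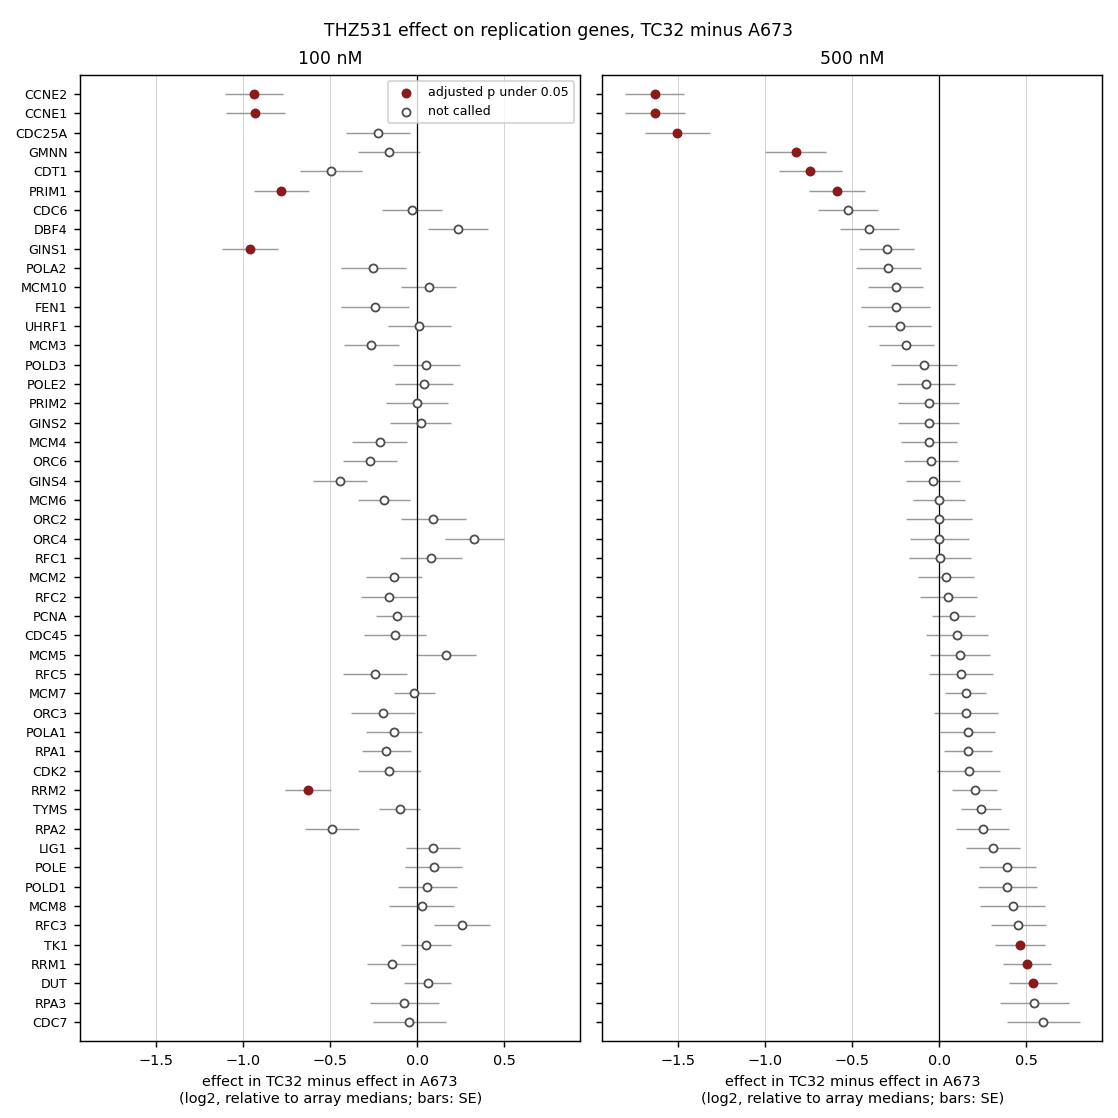
Difference between the THZ531 effect in TC32 and in A673 (log2, relative to array medians, bars SE) for the 49 tested replication genes at 100 nM (left) and 500 nM (right), with filled points where the adjusted p was under 0.05. CCNE2, CCNE1 and CDC25A lie furthest to the left at 500 nM, between -1.63 and -1.50, with the TC32 values of CCNE1 and CCNE2 under the brightness filter.

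The lower dose gave smaller median deposited differences from DMSO in both lines and a partly different picture. In A673 at 100 nM, 39 members were lower as deposited (58.7% of all genes) and none higher (1.32%), and relative to the medians 12 were lower (17.1%) and 9 higher (24.5%). In TC32, 17 were lower as deposited (20.9%) and 1 higher, and relative to the medians 18 were lower (21.2%) and 9 higher (30.6%). The median deposited difference was -0.60 in A673 and -0.33 in TC32, beside -0.52 and -0.07 over all genes. Under all 4 scalings 12 members were lower in A673 (14.8% of all genes) and 17 in TC32 (18.9%), and ORC2, ORC3, CDC6, MCM10, GINS1, GINS4, CDC7, POLA2, PRIM1, POLD3, POLE2 and RPA2 were in both sets. The share of all genes in both sets was not counted, and it can be at most the 14.8% of A673. RFC3 in TC32 was the single member higher under all 4 (5.54% of all genes), with its deposited call lost on leaving out any of 10 arrays. The deposited count in A673 was 18 without A673 DMSO replicate 1 and 20 without either A673 100 nM array, and that in TC32 was 11 without TC32 DMSO replicate 1 and 30 without either A673 500 nM array or with only the groups compared fitted. The relative count of members higher fell to 4 in A673 without A673 DMSO replicate 1 and to 3 without A673 100 nM replicate 2, and in TC32 to 5 without TC32 DMSO replicate 2 and to 3 without TC32 100 nM replicate 2.

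For the effect at 100 nM in TC32 against that in A673, no member was called lower as deposited in limma (0.0885% of all genes) or higher (2.23%). At an unadjusted p under 0.05, 0 members were lower and 4 higher. The median deposited difference of effects over all tested genes was 0.41. Shares of all genes are not given for the unadjusted p or for the alternative fits. Without either A673 500 nM array, or with only the groups compared fitted, 4 were lower and 22 higher. Once arrays were centred, 5 members had a lower effect in TC32, where 1.79% of all genes did, and none a higher one (0.866%), with 8 lower and 0 higher at an unadjusted p under 0.05. They were GINS1 (-0.96 ± 0.16, adjusted p = 0.00203), CCNE2 (-0.94 ± 0.17, adjusted p = 0.00383), CCNE1 (-0.93 ± 0.17, adjusted p = 0.00414), PRIM1 (-0.78 ± 0.16, adjusted p = 0.00983) and RRM2 (-0.63 ± 0.13, adjusted p = 0.0108). The count was 3 without TC32 DMSO replicate 1.

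Comparing 500 nM with 100 nM showed which members changed between the doses. As deposited, 16 members were lower at 500 nM in A673 (26.7% of all genes) and none higher (0.895%), and in TC32 23 were lower (55.5%) and 4 higher (1.09%). At an unadjusted p under 0.05, 1 member was higher in A673. Shares of all genes are not given for that rule or for the alternative fits of this comparison. Under all 4 scalings, 15 members were lower in A673 (19.1% of all genes) and 13 in TC32 (22.7%). Those 4 were GINS1, GINS4, RPA2 and RRM2, with differences of 0.50, 0.47, 0.64 and 0.39, and they were higher under all 4 scalings in TC32. The A673 count of lower members was 4 with only the groups compared fitted and 43 without A673 500 nM replicate 1, and without replicate 2, 11 members were higher. The 4 higher calls in TC32 became between 0 and 2 on leaving out any array other than A673 500 nM replicate 1 or 2. The adjusted p of the 4 calls ran from 0.00203 to 0.0444.

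Relative to the medians, 16 members were lower at 500 nM than at 100 nM in A673 (25.2%) and 7 higher (10.5%), and in TC32 16 were lower (29.8%) and 24 higher (29.2%). In both lines 14 were lower, where 21.6% of all genes were, and 7 higher, where 7.83% were. The lower ones were ORC2, ORC4, CDC6, CDT1, GMNN, MCM10, DBF4, POLD3, RFC1, RFC3, FEN1, CCNE1, CCNE2 and CDC25A. The higher ones were ORC3, GINS1, GINS4, POLA1, POLA2, RPA2 and DUT, with differences from 0.25 to 0.65 in A673 and from 0.31 to 1.22 in TC32. The count of 7 higher in A673 was 4 without A673 100 nM replicate 1, 3 without A673 100 nM replicate 2 and 3 without A673 500 nM replicate 1. The count of 24 higher in TC32 was 14 without TC32 100 nM replicate 1.

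**Figure D4:**
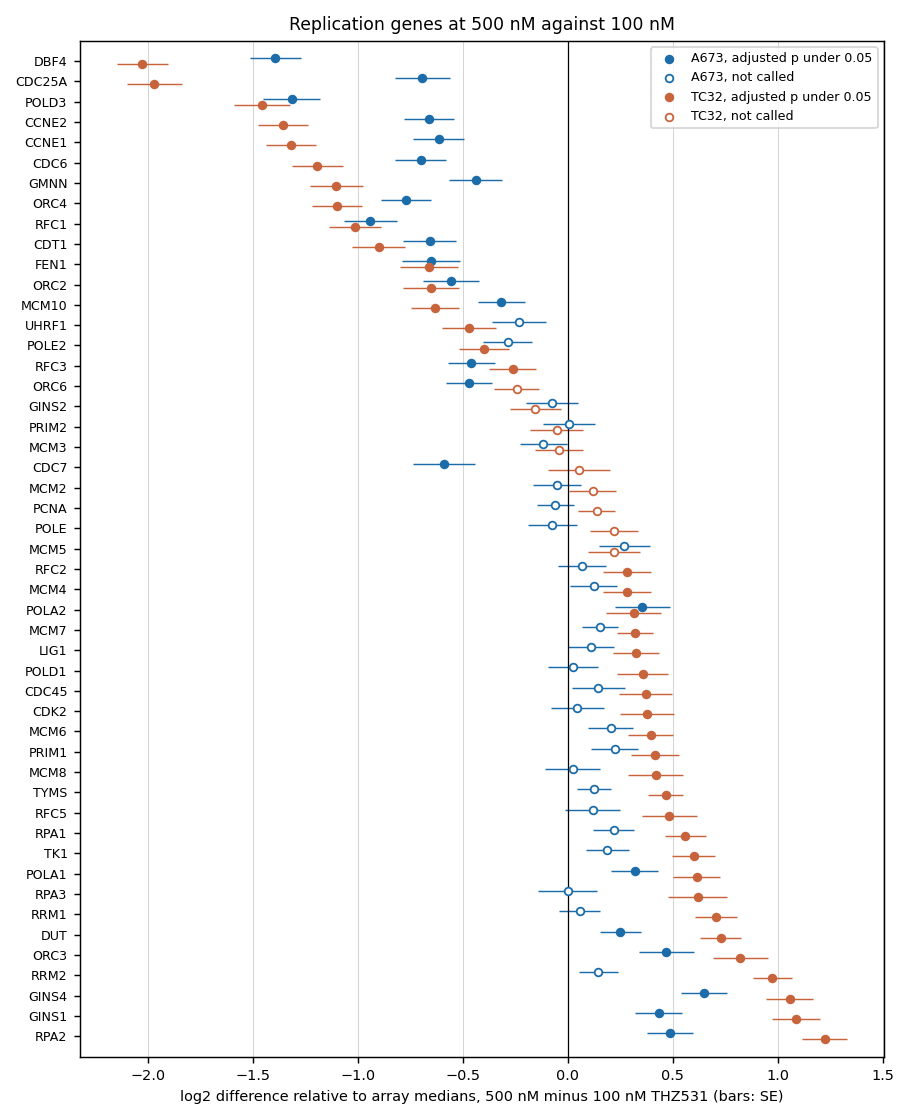
Log2 difference relative to array medians between 500 nM and 100 nM THZ531 for the 49 tested replication genes in A673 (blue) and TC32 (orange), with bars at the SE and open points where the adjusted p was 0.05 or more. DBF4 lies lowest at -1.39 in A673 and -2.03 in TC32, while RPA2 is highest in TC32 at 1.22 and GINS4 highest in A673 at 0.65.

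Under DMSO, most replication genes read higher in A673 than in TC32, with cyclin E2 the other way. As deposited, 45 members were higher in A673 (77.4% of all genes) and 1 lower (5.12%), and relative to the medians 27 were higher (33.9%) and 4 lower (21.5%). The median relative difference was 0.39, beside 0.12 over all genes. Under all 4 scalings 24 members were higher in A673 (27.2% of all genes), and only CCNE2 was lower (5.12%). CCNE2 differed by -1.21 ± 0.21 as deposited and -1.90 ± 0.12 relative to the medians (adjusted p = 5.63e-12). CDC7, GINS2 and MCM8 had the largest differences on the other side, with relative values of 1.04 ± 0.15, 0.96 ± 0.12 and 0.94 ± 0.13 (adjusted p between 7.02e-07 and 3.15e-06). The 4 members lower in A673 relative to the medians were CCNE2, MCM4 (-0.39), RRM2 (-0.38) and RRM1 (-0.36), and of these MCM4, RRM2 and RRM1 were not called as deposited. The DMSO array medians themselves lay 0.69 higher in A673, and line and array scaling cannot be told apart in the deposited values.

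Beyond the listed members, 50 other genes of the replication pathway were looked at, of which 46 were tested. At 500 nM as deposited, 43 were lower and 0 higher in A673, with a median of -1.06, and 36 were lower and 0 higher in TC32, with a median of -0.997, where 82.5% of all genes were lower in A673 and 62.9% in TC32. Against the array medians, 18 were lower and 6 higher in A673 (27.4% and 29.8% of all genes), and 21 lower and 15 higher in TC32 (30.7% and 41.3%). TICRR, which helps to fire origins, and CHAF1A, a subunit of the histone chaperone that follows the fork, were among the lowest in both lines. TICRR had relative differences of -1.30 ± 0.16 in A673 and -1.84 ± 0.16 in TC32, and CHAF1A had -1.27 ± 0.11 and -1.78 ± 0.11. At 100 nM, CHAF1A was already lower, by -1.26 in A673 and -1.42 in TC32, while TICRR was at 0.06 and -0.06, neither called. POLE3, a small subunit of polymerase epsilon, had relative differences at 500 nM of 0.88 in A673 and 0.68 in TC32, both called higher, and deposited ones of 0.04 and -0.11, neither called. MCM9, the partner of MCM8, was called higher at 100 nM as deposited, by 0.52 ± 0.22 in A673 (adjusted p = 0.0335) and 1.75 ± 0.22 in TC32 (adjusted p = 5.21e-14). At 500 nM its deposited difference was -0.82 in A673, called lower, and 0.32 in TC32, not called.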

How the data were processed

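RNA of A673 and TC32 cells was labelled with biotin and hybridised to 12 arrays, with ERCC spike-in RNA added per the labels' protocols. The authors deposited 1 table of log2 signals for 49395 probe sets, and MAS5, GRCh37 and hg19 are named per the submitters' processing notes, without their roles. Whether the spike-ins set the scaling is not given in the sources used here. DMSO arrays were grouped by their treatment label, although a dose of 100 nM is listed for them too.

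Probe sets were named from the platform annotation: 44994 had 1 gene, 1832 several and 2569 none. The 2829 rows with at most 2 decimals were left out because their columns appeared to be in another order, as were 85 genes that shared values with another gene, and 16944 genes remained. Where a gene had several probe sets, the one with the highest mean was kept. Genes with a mean at or above the 40th percentile (log2 5.94) were tested, 10166 in all. The main model was limma 3.58.1 (lmFit, eBayes with a trend) in R 4.3.3, with 1 mean for each of 6 groups, two-sided, Benjamini-Hochberg over all tested genes and a threshold of 0.05. It ran on values as deposited and with each array centred on its median; the script was tested on simulated data. Figures and tables used Python 3.11.15, pandas 2.3.3 and matplotlib 3.10.9.

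The labels call the arrays biological replicates but name no separate cultures, so p-values measure the spread between these arrays, which may be technical. As deposited, the moderation put all weight on the trend of spread with brightness over all genes. A gene's own spread between arrays therefore did not enter its deposited p-value. With 2 arrays in a group, precision is limited. As deposited, an offset of a whole array is shared by all genes, so those adjusted p can be too small or too large. The fit pooled the spread of all 6 groups, so the offset A673 500 nM arrays also entered the SE of TC32 comparisons. More members were called lower in TC32 at 500 nM when either of those arrays was left out. Same-numbered arrays did not deviate together (correlations from -0.15 to 0.24), so replicate numbers were not used as a block in the main model. Alternatives were other filters, moderation, probe-set summaries, scalings, the 2-decimal rows, the samples fitted, a replicate block, values under the filter raised to it and leaving out each array. The members and lists were chosen with earlier results of these data known. Members given array by array were the textbook genes of each role, the 4 lowest and 4 highest at 500 nM in each line, and up to 4 with the smallest adjusted p between lines or the largest difference under DMSO. DBF4, GINS1, RPA2 and the other genes named outside that rule were chosen after their values were seen.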

Additional observations from a re-analysis of the deposited data

Results flagged for a closer look

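These genes are given because the effect of THZ531 differed between TC32 and A673 by the test of that difference in limma. Values are the log2 effect in TC32 minus that in A673, so negative values mean a more negative difference from DMSO in TC32. At 500 nM as deposited, the difference was -1.59 for CCNE1, -1.59 for CCNE2 and -1.46 for CDC25A. The TC32 values of CCNE1 and CCNE2 at 500 nM lay under the brightness filter, as did CCNE2 on A673 500 nM replicate 2. With values under it raised to it, the deposited difference was -0.67 for CCNE1 (adjusted p = 0.186) and -1.42 for CCNE2 (adjusted p = 9.09e-05). CCNE2 started lower in A673 under DMSO, so it had less room there to fall to the filter. Relative to array medians at 500 nM it was -1.63 for CCNE1, -1.63 for CCNE2, -1.50 for CDC25A, -0.82 for GMNN, -0.74 for CDT1 and -0.59 for PRIM1, each with the lower effect in TC32, and with values raised to the filter -0.71 for CCNE1 and -1.46 for CCNE2. On the other side it was 0.54 for DUT, 0.50 for RRM1 and 0.46 for TK1, and these 3 were not called as deposited. The relative calls of DUT and CDT1 at 500 nM were lost without some single arrays. The call of TK1 was lost on leaving out most single arrays, with adjusted p up to 0.176, and that of RRM1 on leaving out any of 5, with adjusted p up to 0.104. At 100 nM relative to array medians it was -0.96 for GINS1, -0.94 for CCNE2, -0.93 for CCNE1, -0.78 for PRIM1 and -0.63 for RRM2. Groups of 2 arrays are too small to look for single arrays that stand apart.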

How the results depend on the processing

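Of the counts of members called, 366 of the alternatives that left out no array stayed within 1.5 times the main count and 33 did not; for single genes, 1189 values kept direction and side of the threshold, 28 lost the call, 22 gained it and 9 turned direction. The cause was not tested where a value moved. Shares of all genes are not given beside the counts below, so these show only how far the member calls moved. The replicate block within each line gave 49 members lower as deposited at 500 nM in A673 and moved no count by over 1.5 times.

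As deposited, TC32 at 100 nM had 0 members higher with no filter, a filter at the 25th percentile or no trend, and TC32 at 500 nM against 100 nM had 2 with no filter. With the 2-decimal rows kept, 3 members were higher in A673 at 500 nM, 2 at 100 nM and 3 at 500 nM against 100 nM; 5 had a lower effect in TC32 at 500 nM and 1 at 100 nM, and 4 were lower in A673 under DMSO. Fitting only the groups compared left fewer degrees of freedom and gave 23 lower in A673 at 500 nM, 30 lower and 3 higher in TC32 at 100 nM, 4 lower in A673 at 500 nM against 100 nM, 4 lower and 22 higher for TC32 against A673 at 100 nM, and, relative to medians, 11 higher in A673 at 500 nM against 100 nM.

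Relative to array medians, no trend gave 1 higher effect in TC32 at 500 nM. Quantile normalisation gave 22 lower and 5 higher in A673 at 100 nM, 18 higher in A673 at 500 nM against 100 nM, and 9 and 1 higher effects in TC32 at 500 nM and 100 nM. Among the genes given array by array and called on either scaling, it turned PCNA (-0.028), RRM2 (-0.12), MCM7 (-0.11) and GMNN (-0.16) in A673 and PCNA (-0.086), RRM2 (-0.092) and MCM7 (-0.10) in TC32 at 500 nM. MCM4 in TC32 was called higher relative to array medians (0.28) and lower after it (-0.23). Centring on tested genes gave 27 higher in A673 and 29 in TC32 at 500 nM, 18 in A673 at 100 nM, 26 in A673 at 500 nM against 100 nM, 10 higher effects in TC32 at 500 nM and 7 lower in A673 under DMSO, and turned MCM8 in A673 (0.27). Raising values under the filter to it, an alternative added after the data were seen, left 0 members higher in TC32 at 100 nM as deposited, gave 1 higher effect in TC32 at 500 nM as deposited and 1 at 100 nM on each scale, all CDC7, and turned CDC7 in TC32 at 500 nM relative to medians (0.21).

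Leaving out 1 array at a time, deposited counts lower ran over 38 to 49 (A673 500 nM), 24 to 45 (TC32 500 nM), 18 to 44 (A673 100 nM), 11 to 30 (TC32 100 nM, higher 0 to 2), 12 to 43 (A673 500 nM against 100 nM, higher 0 to 11) and 19 to 30 (TC32 500 nM against 100 nM, higher 0 to 4). For TC32 against A673 they ran over 3 to 12 (higher 0 to 23) at 500 nM and 0 to 4 (higher 0 to 22) at 100 nM. Relative counts ran over 14 to 18 lower and 5 to 11 higher (A673 500 nM), 18 to 20 and 15 to 19 (TC32 500 nM), 10 to 12 and 3 to 12 (A673 100 nM), 15 to 18 and 3 to 10 (TC32 100 nM), 13 to 17 and 3 to 7 (A673 500 nM against 100 nM), 14 to 17 and 14 to 25 (TC32 500 nM against 100 nM), 4 to 9 and 0 to 6 (TC32 against A673, 500 nM) and 3 to 6 and 0 (100 nM).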
